A study of Mus musculus with 12 samples.

Results

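Axon guidance ligands and receptors were examined as RNA targets of Puf60 and Rbm38 in the mouse neuroblastoma line N2A. The genes were taken by symbol from the protein-coding genes of the mouse reference: ephrins and Eph receptors, semaphorins, plexins and neuropilins, Slits and Robos, netrins, Unc5 receptors and Dcc. This gave 71 of 21896 protein-coding genes. They comprise 8 ephrins, 14 Eph receptors, 20 semaphorins, 9 plexins, 2 neuropilins, 3 Slits, 4 Robos, 4 netrins, Dcc and 6 genes matched as Unc5. The last number includes Unc50, which shares the start of the symbol but is no netrin receptor, and Unc5cl, a relative of the Unc5 receptors.

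Contacts were mapped by iCLIP, in which ultraviolet light (150 mJ/cm2) crosslinks protein to RNA in living cells and the bound RNA fragments are recovered and sequenced. Rbm38 and 2 forms of Puf60, with and without exon 5, were expressed with a Flag tag in N2A lines made with the Flp-in system and recovered with the Flag antibody M2. Each of these proteins was represented by 3 CLIP libraries. A single size-matched input per protein holds lysate RNA from the same gel range that was not immunoprecipitated, which brings the samples to 12. Doxycycline at 1 µg/ml induced the transgene for 48 h in the CLIP libraries of Puf60 with exon 5 and for 24 h in every other library, the input of that line included. Between the Puf60 forms, isoform and time of induction cannot be told apart, and the enrichment of Puf60 with exon 5 also sets 48 h against 24 h. The proteins studied are transgene products, and the labels do not say whether the replicates came from separate cultures.

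Growing axons read these cues at the growth cone, the motile tip of the axon. Ephrins are membrane-bound ligands of the Eph receptor tyrosine kinases, semaphorins act through plexins, with neuropilins as partners for the secreted class, Slits repel axons through Robo receptors, and netrins attract through Dcc and repel through Unc5 receptors. Many of these genes are long, with large introns, and their transcripts are heavily spliced in neurons. The splicing factor Puf60 recognises pyrimidine-rich RNA ahead of 3′ splice sites. Rbm38 is known for contacts in 3′ untranslated regions and for regulating splicing and mRNA stability.

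The values are the authors' own: for each protein a table of clusters, short genomic windows, each with its log2 fold (CLIP relative to input) and an adjusted p. The tables hold no value per library, so no spread between replicates, depth or test of a difference can be given here, and expression of a gene in these cells was not measured. Clusters with a deposited adjusted p under 0.05 are called enriched. Over the whole tables this held for 39.1%, 36.1% and 50.9% of clusters for Puf60 with exon 5, Puf60 without exon 5 and Rbm38. Ranges in parentheses after a share are 95% Wilson intervals, which cover counting error only. Clusters of 1 gene share its transcript and are not replicates. Positions are on mm10, and the strand of a cluster is inferred from its position on the authors' grid.

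Sequences are shown for microRNA genes within Slit2 and Slit3 and for the start of Efna5. These places are covered by RefSeq and were chosen after their values were seen. Slit2 and Slit3 each hold a copy of miR-218, a microRNA prominent in motor neurons that is made from the introns of these genes. Enriched Puf60 clusters lay beside the copy in Slit2, Mir218-1. The hairpins and the mature microRNA are from RefSeq on GRCm38.p6, the patch release of mm10. Capitals in the hairpins mark mmu-miR-218-5p, which is identical in both, and capitals in the mature microRNA mark its seed, bases 2 to 8.
Mir218-1 hairpin (chr5:48223942-48224051, plus strand): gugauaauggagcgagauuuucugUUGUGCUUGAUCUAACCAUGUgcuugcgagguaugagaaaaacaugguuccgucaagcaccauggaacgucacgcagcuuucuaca
Mir218-2 hairpin (chr11:35616816-35616925, plus strand): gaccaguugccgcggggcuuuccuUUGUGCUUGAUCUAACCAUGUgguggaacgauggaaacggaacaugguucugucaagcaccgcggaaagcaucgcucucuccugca
mmu-miR-218-5p: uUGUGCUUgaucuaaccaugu

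The stretch around the annotated start of Efna5 is shown because all 3 proteins had an enriched cluster on it, and because it is rich in C and T, the bases of a pyrimidine tract. It is from RefSeq on GRCm38.p6, read 5′ to 3′ on the minus strand, with 250 bases before the start and 30 after it. Capitals mark what the clusters of all 3 proteins cover within it.
Efna5 start (chr17:62881288-62881567, minus strand): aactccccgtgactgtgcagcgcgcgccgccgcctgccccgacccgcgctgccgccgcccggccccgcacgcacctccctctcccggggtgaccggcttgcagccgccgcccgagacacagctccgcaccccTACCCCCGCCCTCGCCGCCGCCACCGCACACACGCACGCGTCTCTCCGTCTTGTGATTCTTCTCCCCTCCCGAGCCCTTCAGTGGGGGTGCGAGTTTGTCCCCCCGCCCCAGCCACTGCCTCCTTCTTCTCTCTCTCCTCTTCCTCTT

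Contacts were found in 27 of the 71 genes. Each of the 27 had an enriched cluster for at least 1 protein (38%, beside 32.1% of all protein-coding genes). Clusters were counted in the orientation of the gene, except that Dcc, Plxna1, Plxna4, Sema6a and Unc5d have no annotated strand here and all clusters in their bodies were counted. By protein, 17 genes (23.9%, beside 17.1% of protein-coding genes) had an enriched cluster with exon 5, 18 (25.4%, beside 17.2%) without and 23 (32.4%, beside 25.9%) for Rbm38. The other 44 genes, among them all 4 Robos, all 4 netrins, Slit1 and Sema3a, had none in any table. A gene without a cluster may be silent in N2A cells or expressed and not contacted, which these tables cannot separate.

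Enriched clusters of Puf60 were a smaller share of the listed clusters than over the whole tables. With exon 5, 66 of 463 clusters were enriched (14.3%, 11.4 to 17.7), in 17 genes, beside 39.1% of all clusters in that table. Without exon 5 it was 64 of 430 (14.9%, 11.8 to 18.6), in 18 genes, beside 36.1%. Rbm38 had 249 enriched clusters of 569 (43.8%, 39.7 to 47.9), in 23 genes, beside 50.9%. The low Puf60 shares rested on Efna5 and Unc5c, which held 370 of the 463 and 351 of the 430 listed clusters. Without these 2 genes, 37 of 93 (39.8%) and 37 of 79 (46.8%) Puf60 clusters were enriched, and 95 of 196 (48.5%) Rbm38 clusters. These shares lie near or above those of the whole tables.

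Puf60 clusters that were enriched stood further above input than those of Rbm38. Their median log2 fold in the authors' deposited tables was 3.16 with exon 5 and 3.15 without, against 1.90 for Rbm38. Over all enriched clusters of the authors' deposited tables the medians were 2.89, 2.80 and 2.33. The low Rbm38 median rested on few genes, as Efna5 alone held 131 of the 249 enriched Rbm38 clusters. Without Efna5, Unc5c and Unc5b the medians in the authors' deposited tables were 3.42, 3.46 and 2.39. Each table was made against its own input, so this sets levels of separate comparisons side by side.

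By gene, the calls of the 3 proteins overlapped in part. The matching shares over all protein-coding genes were not counted, so the gene counts that follow have no background beside them. 12 genes had an enriched cluster for all 3 proteins: Efna5, Epha4, Nrp2, Plxna3, Plxna4, Sema3c, Sema4d, Sema6d, Slit2, Unc5b, Unc5c and Unc5d. Epha5, Ephb2 and Slit3 had one for both forms of Puf60 and none for Rbm38. 7 genes had one for Rbm38 and none for Puf60, namely Efnb2, Ephb1, Plxna1, Sema4b, Sema4c, Unc5a and Unc50. Of the remaining genes, Nrp1 was enriched with exon 5 alone, Sema6a with exon 5 and for Rbm38, and Dcc, Plxnb2 and Plxnc1 without exon 5 and for Rbm38. An absent call in a table is not a tested difference.

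**Figure D1:**
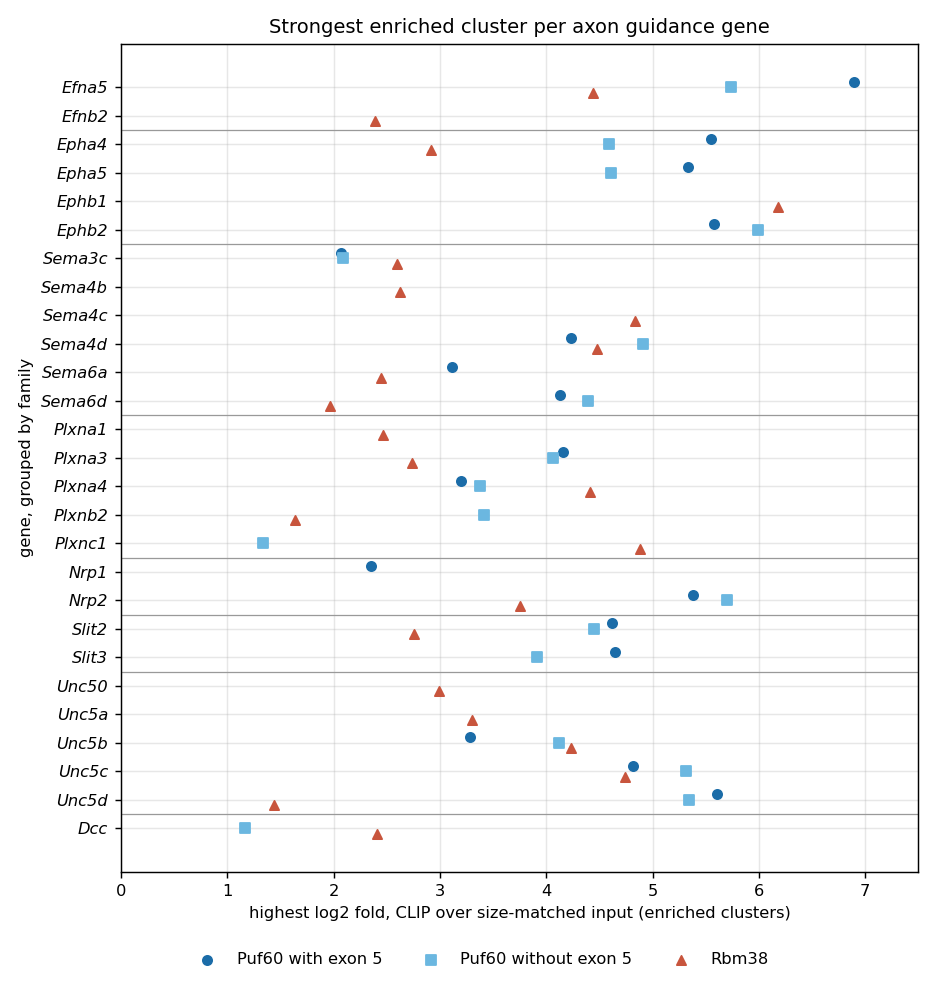
Highest log2 fold of CLIP over size-matched input among the enriched clusters of each gene (x axis), for the 27 genes with an enriched cluster (rows, grouped by family); circles are Puf60 with exon 5, squares Puf60 without exon 5 and triangles Rbm38. The values are from the authors' deposited tables; Efna5 is highest with exon 5 at 6.89, Ephb2 without exon 5 at 5.99 and Ephb1 for Rbm38 at 6.18.

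Among the ligands, the ephrins were represented by Efna5 and Efnb2 alone of 8 genes. Efna5 (chr17:62602957-62881317, gene 13640) encodes ephrin-A5, a membrane-anchored ligand that repels retinal and cortical axons. It held 227 listed clusters with exon 5, 163 without and 292 for Rbm38, the most of any gene in the group for Puf60 with exon 5 and for Rbm38. Of these 11, 9 and 131 were enriched, or 4.85%, 5.52% and 44.9%. The log2 fold in the authors' deposited tables was above 0, whether called enriched or not, at 46 (20.3%) and 31 (19%) of the Puf60 clusters with and without exon 5. For Rbm38 it was above 0 at 259 (88.7%) of the clusters in the authors' deposited table.

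The strongest Puf60 contact of Efna5 lay close to the end of the gene. The cluster chr17:62603536-62603635, 629 nt before the annotated 3′ end, had a log2 fold of 6.89 with exon 5 and 5.74 without in the authors' deposited tables, with an adjusted p written as 0 in both. Rbm38 also had an enriched cluster there, at 2.95 in the authors' deposited table. Its own strongest cluster in this gene, at 4.44 in the authors' deposited table, lay further upstream at chr17:62603836-62603985.

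Along Efna5, listed clusters crowded toward the 5′ end and again at the very 3′ end. In the 5′ 50% of the gene lay 205 (90.3%), 146 (89.6%) and 262 (89.7%) of the clusters of Puf60 with exon 5, Puf60 without exon 5 and Rbm38. When the gene was cut into 10 equal parts from the 5′ end, parts 8 and 9 together held 2 clusters over all 3 tables, and part 10 held 12, 13 and 16. Within 5000 nt of the 3′ end 3 of 11, 2 of 12 and 15 of 16 clusters were enriched. Elsewhere in the gene it was 8 of 216, 7 of 151 and 116 of 276. The last stretch was therefore enriched over most of its clusters for Rbm38 and at a few single points for Puf60.

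At the annotated start of Efna5 the 3 proteins met on the stretch printed above, which was singled out after its values were seen. In the authors' deposited tables the log2 folds were 3.99 with exon 5 (chr17:62881186-62881435), 4.58 without (chr17:62881186-62881485) and 1.72 for Rbm38 (chr17:62881286-62881435). All 3 were enriched, and they shared 150 nt, of which 74.7% are C or T. The centres of the last 2 clusters lie just outside the gene body, so they are not in the counts above. The longest run of C and T alone is 36 bases and spans the first 36 bases of the gene. Among 32851 windows of the same length, from 250 bases before to 50 after each start, 100 (0.304%) held a C and T run as long. C and T made up 68.7% of the Efna5 window and 49.7% of the median window, and 141 windows (0.429%) were as rich. The stretch was shown partly for its C and T, so its rank among the windows is no independent result. The run is a property of the sequence and no evidence of where a protein bound.

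Efnb2 encodes ephrin-B2, a transmembrane ligand that also signals back into the cell that carries it. It had 1 enriched cluster, for Rbm38, at 2.39 in the authors' deposited table (chr8:8632186-8632235).

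Of 20 semaphorins, 6 had an enriched cluster. Sema4d, a transmembrane semaphorin that acts through plexin-B1, had the most. Its strongest Puf60 cluster was the same window in both forms, chr13:51710536-51710585, at 4.23 with exon 5 and 4.91 without in the authors' deposited tables. Rbm38 had 15 enriched clusters of 24 listed in Sema4d. 10 of them formed a dense group 15807 to 17657 nt before the annotated 3′ end, with log2 folds of 1.35 to 4.48 in the authors' deposited table. Both remaining enriched clusters of Puf60 without exon 5, at 1.02 and 1.57 in the authors' deposited table, fell in the same group.

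Sema4c and Sema4b, transmembrane semaphorins of the same class, were enriched for Rbm38 alone. The 3 enriched clusters of Sema4c lay 122, 322 and 572 nt before the 3′ end, at 4.29, 3.77 and 4.83 in the authors' deposited table. The cluster of Sema4b lay 1621 nt before it, at 2.62 in the authors' deposited table.

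Sema6d, a transmembrane semaphorin that binds plexin-A receptors, had its Puf60 contact at a single window deep in the gene. This window, chr2:124321501-124321550, was 346264 nt from the 3′ end and stood at 4.13 with exon 5 and 4.39 without in the authors' deposited tables. Rbm38 had its enriched cluster 1414 nt from the 3′ end instead, at 1.97 in the authors' deposited table.

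Sema3c encodes a secreted semaphorin that binds neuropilins. All 3 proteins had 1 cluster in it, at 1 and the same window 2610 nt from its 5′ end (chr5:17577401-17577450). The log2 folds there were 2.07 with exon 5, 2.09 without and 2.60 for Rbm38 in the authors' deposited tables. For Sema6a, which lacks an annotated strand here, the authors' deposited tables gave at most 3.11 with exon 5 and 2.45 for Rbm38, at different windows with opposite offsets.

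Slit2 and Slit3 encode secreted repellents that act at the midline. Slit2 had 11 enriched clusters of 21 with exon 5 (52.4%), 9 of 13 without (69.2%) and 3 of 4 for Rbm38, and both Puf60 shares exceeded those of the whole tables. Its highest values in the authors' deposited tables were 4.62 with exon 5 (chr5:48192101-48192200) and 4.45 without (chr5:48192151-48192200). The enriched clusters with exon 5 were spread from 6585 nt after the 5′ end to 83110 nt before the 3′ end. Those without exon 5 ran from 32485 nt after the 5′ end to 83860 nt before the 3′ end. All 3 Rbm38 clusters lay between 2560 and 3060 nt from the 3′ end, at 2.75, 2.76 and 1.96 in the authors' deposited table.

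A set of Puf60 clusters in Slit2 stood just upstream of the Mir218-1 hairpin printed above. With exon 5, clusters ending 441, 291 and 41 nt before the hairpin had log2 folds of 3.10, 3.16 and 2.95, and one starting 549 nt after it had 2.44, in the authors' deposited table. Without exon 5, clusters ending 391, 291 and 41 nt before it had 3.46, 2.71 and 2.77 in the authors' deposited table. All 7 were enriched, and the windows 291 and 41 nt away were the same in both forms. Rbm38 had no cluster within 2000 nt of this hairpin. These places were looked at after the values were seen.

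The second copy, Mir218-2 in Slit3, did not show this. Within 2000 nt of it only Puf60 with exon 5 had clusters, at -0.66 (15 nt before) and -0.05 (125 nt after) in the authors' deposited table, and neither was enriched. Slit3 itself had 6 enriched clusters of 10 with exon 5 and 3 of 3 without, and its single Rbm38 cluster, at -0.90 in the authors' deposited table, was not enriched. Its highest values were 4.65 with exon 5 (chr11:35570501-35570600) and 3.91 without (chr11:35679751-35679800) in the authors' deposited tables.

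**Figure D2:**
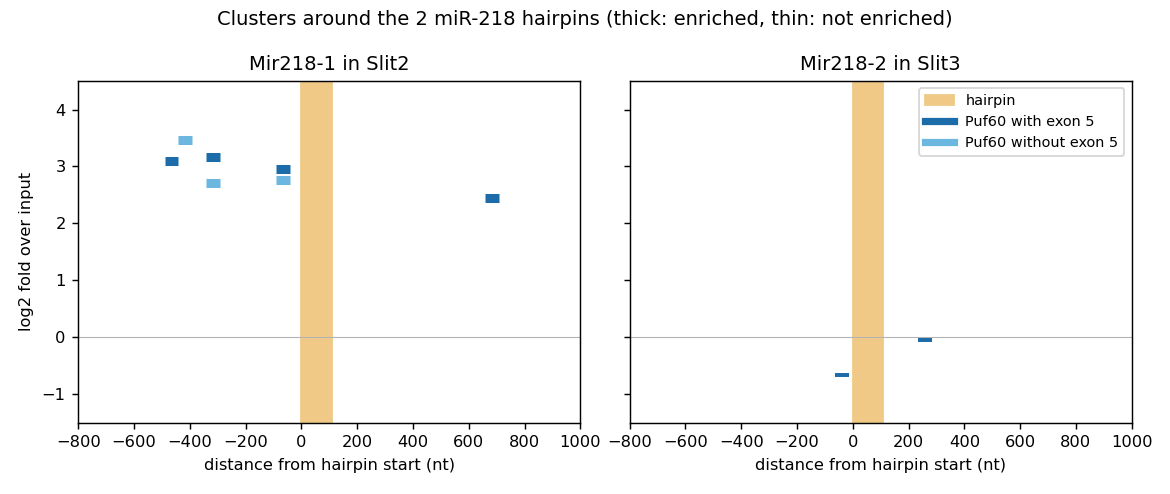
Log2 fold over input (y axis) against distance from the 5′ end of the hairpin in nt (x axis) for the clusters around Mir218-1 in Slit2 (left) and Mir218-2 in Slit3 (right); each bar spans 1 cluster, thick bars are enriched and thin bars are not, and the shaded band is the hairpin. In the authors' deposited tables the 7 clusters beside Mir218-1 lie between 2.44 and 3.46, and the 2 beside Mir218-2 at -0.66 and -0.05.

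Among the receptors, Eph receptors were contacted at single places. 4 of 14 genes had a cluster, and no Eph receptor had more than 1 in any table. Epha4, a receptor that steers motor and corticospinal axons, had 5.55 with exon 5 (chr1:77397136-77397235) and 4.59 without (chr1:77397186-77397235) in the authors' deposited tables. The enriched Rbm38 cluster of Epha4 lay elsewhere, 1904 nt from the 3′ end, at 2.92 in the authors' deposited table. Ephb2, a receptor of the B class that also acts at synapses, had 5.58 with exon 5 and 5.99 without at the window chr4:136653786-136653885 in the authors' deposited tables. The cluster of Rbm38 in Ephb2, at 0.11 in the authors' deposited table, was not enriched.

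Epha5, a receptor for ephrin-A ligands, had its cluster 808 nt from the 5′ end (chr5:84416986-84417035), at 5.33 with exon 5 and 4.61 without in the authors' deposited tables. Ephb1, which sends retinal axons to the same side of the brain, was listed for Rbm38 alone. Its value of 6.18 (chr9:101972136-101972185) was the highest of Rbm38 in the group, 50033 nt from the 3′ end, in the authors' deposited table.

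Plexins, the receptors of semaphorins, had enriched clusters in 5 of 9 genes. Plxna3 held 3 enriched of 3 listed clusters with exon 5, 8 of 11 without and 6 of 18 for Rbm38. The values of Puf60 ran from 2.86 to 4.16 with exon 5 and from 2.78 to 4.06 without in the authors' deposited tables. The 5 additional enriched clusters without exon 5 had no matched cluster in the table with exon 5, and whether this exceeds the spread between libraries was not tested.

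Plxna4 has no annotated strand in the reference used here, and its clusters gave the minus strand. A cluster 18 nt from the end of the gene body on that strand was listed in all 3 authors' deposited tables, at 4.41 for Rbm38, 1.91 with exon 5 and 0.23 without, the last not enriched (chr6:32144536-32144585). The Puf60 forms shared an enriched window 93368 nt from that end, at 3.17 with exon 5 and 3.38 without in the authors' deposited tables.

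Plxnc1, a receptor of the semaphorin Sema7a, had 4 enriched Rbm38 clusters between 120 and 2245 nt from the 3′ end. The highest, 500 nt wide, reached 4.88 in the authors' deposited table (chr10:94792186-94792685). Without exon 5 Plxnc1 had 1.34 and 0.72 in the authors' deposited table, the lower of them close to the threshold at an adjusted p of 0.0413. Plxnb2, which organises cerebellar precursors and binds class 4 semaphorins, had 3.41 without exon 5 and at most 1.64 for Rbm38 in the authors' deposited tables. Plxna1, a co-receptor for secreted semaphorins, had 3 enriched Rbm38 clusters, the highest at 2.46 in the authors' deposited table.

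Both neuropilins, the ligand-binding partners of plexins, had clusters. Nrp2 carried 1 enriched Puf60 window, chr1:62798401-62798550, at 5.38 with exon 5 and 5.70 without in the authors' deposited tables. Within that window Rbm38 stood at 1.12 in the authors' deposited table, and all 6 of its clusters in Nrp2 were enriched. The highest of these, at 3.75 in the authors' deposited table, lay 67 nt from the 3′ end. Nrp1 was enriched with exon 5 at 2 windows, 1526 and 2001 nt from the 3′ end, at 2.35 and 1.32 in the authors' deposited table. The table without exon 5 listed no cluster in Nrp1, and Rbm38 had 1 that was not enriched, at -0.38 in the authors' deposited table.

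The Unc5 receptors, which turn netrin into a repellent signal, had the most clusters among the receptors. Unc5c (chr3:141465564-141834924, gene 22253) held 143 clusters with exon 5, 188 without and 81 for Rbm38, of which 18, 18 and 23 were enriched. The strongest of Puf60 lay 12362 and 12337 nt from the 5′ end, at 4.82 with exon 5 (chr3:141477851-141478000) and 5.31 without (chr3:141477851-141477950) in the authors' deposited tables. The strongest of Rbm38 lay 599 nt from the 3′ end, at 4.74 in the authors' deposited table (chr3:141834251-141834400).

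The split of Unc5c was complete at its end. Within 5000 nt of the 3′ end 0 of 16 clusters with exon 5 and 0 of 17 without were enriched, and 10 of 10 for Rbm38. Their median log2 folds in the authors' deposited tables were -0.55, -0.84 and 2.26. Elsewhere 18 of 127, 18 of 171 and 13 of 71 were enriched. As in Efna5, most listed clusters, 119 (83.2%), 165 (87.8%) and 68 (84%), lay in the 5′ 50% of the gene.

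Unc5b, a netrin receptor also found in blood vessels, showed the same order at its end. Within 5000 nt of the 3′ end 0 of 6 clusters with exon 5, 0 of 9 without and 7 of 10 for Rbm38 were enriched. The highest Rbm38 cluster of Unc5b was 700 nt wide and stood at 4.23 in the authors' deposited table (chr10:60762636-60763335). Rbm38 also had 23 enriched of 31 listed clusters within 20000 nt of the 5′ end of Unc5b, where Puf60 had 0 of 3 with exon 5 and none listed without. The strongest Puf60 clusters of Unc5b were 3.28 with exon 5 and 4.12 without in the authors' deposited tables, 10092 and 10117 nt from the 3′ end.

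Unc5d carried 1 Puf60 cluster in each form, at the same window (chr8:29110886-29110935), at 5.61 with exon 5 and 5.34 without in the authors' deposited tables. Unc5d has no annotated strand here, and the offset of this cluster is that of the minus strand. Rbm38 had an enriched cluster at the same window, at 1.25 in the authors' deposited table. The strongest Rbm38 cluster in Unc5d, at 1.44 in the authors' deposited table, has the other offset. Unc5a had 2 enriched Rbm38 clusters 743 and 143 nt from the 3′ end, at 3.30 and 2.95 in the authors' deposited table. In Unc50, which is no guidance receptor, Rbm38 had 2 enriched clusters, the higher at 2.99 in the authors' deposited table.

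Dcc, the attractive netrin receptor, was weakly represented. It had 9, 11 and 18 clusters, of which 0, 1 and 2 were enriched, at 1.17 without exon 5 and 1.61 and 2.41 for Rbm38 in the authors' deposited tables. All of them had the offset of the plus strand. The strand of Dcc was not used here from an annotation, so whether they lie on its transcript is unknown. If they lie opposite to it, Dcc does not belong among the genes counted here as contacted. Its inferred 3′ end would then be the wrong end.

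**Figure D3:**
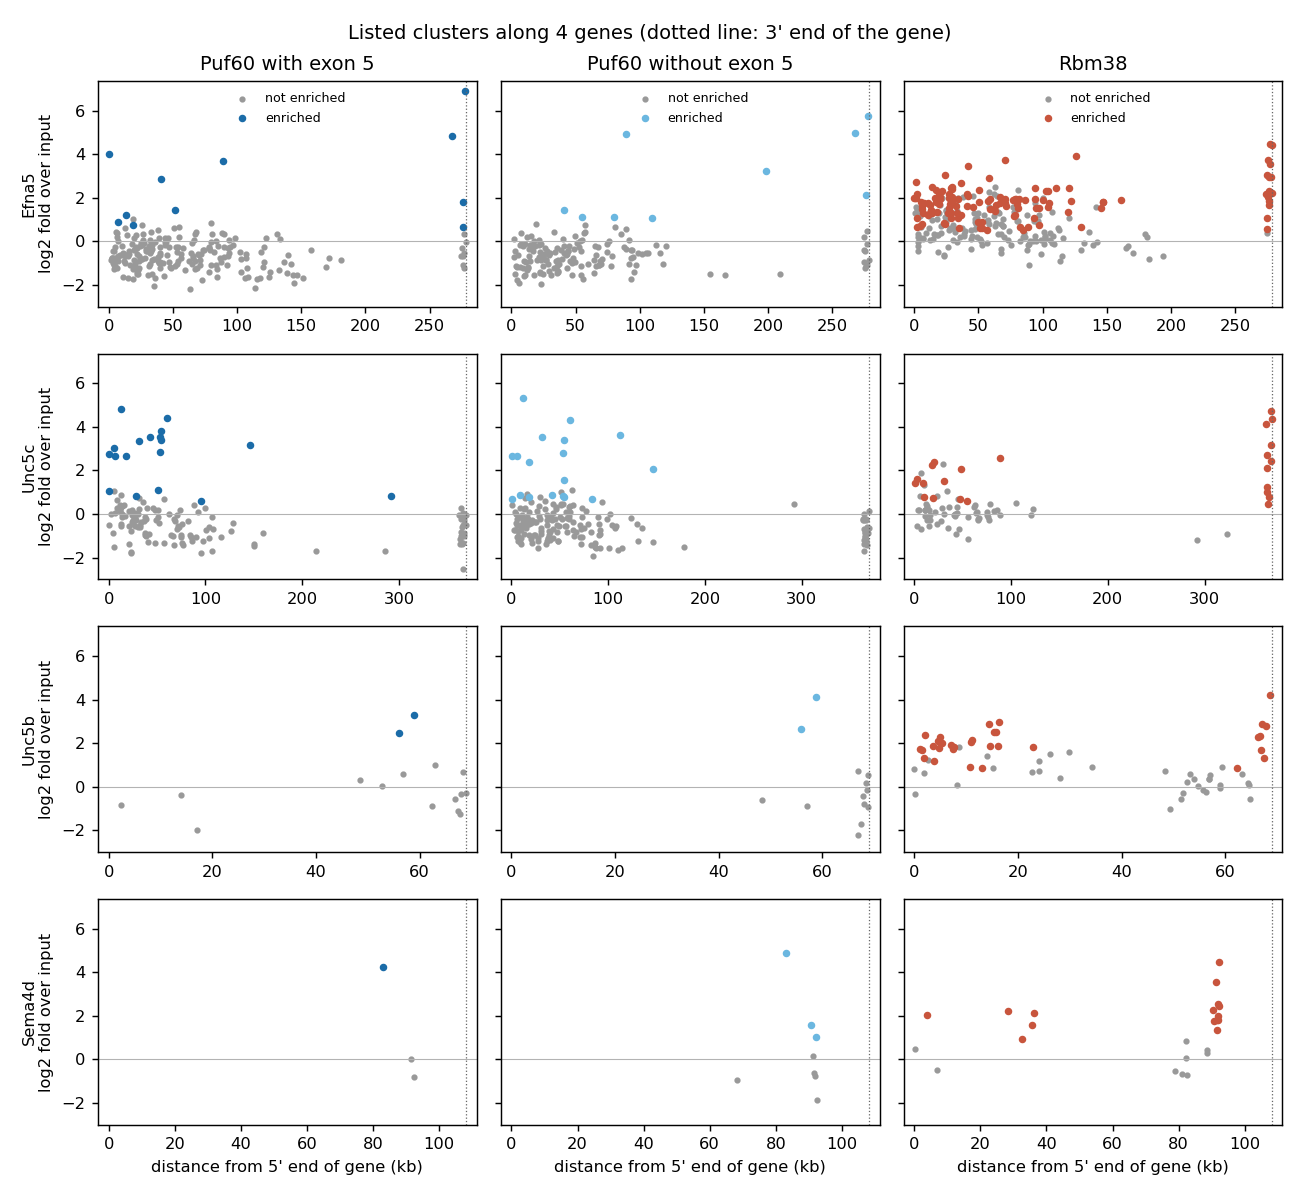
Log2 fold over input (y axis) of every listed cluster against its distance from the 5′ end of the gene in kb (x axis) in Efna5, Unc5c, Unc5b and Sema4d (rows) for the 3 proteins (columns); coloured points are enriched, grey points are not, and the dotted line is the 3′ end. In Unc5c all 10 Rbm38 clusters within 5000 nt of the 3′ end are enriched and none of the 16 and 17 Puf60 clusters is.

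The 3′ end was then compared over all genes with a strand, which for Dcc, Plxna1, Plxna4 and Unc5d is only inferred from the offsets of their clusters. Within 2000 nt of the 3′ end lay 3 of 64 enriched clusters with exon 5 (4.69%, 1.61 to 12.9), 2 of 64 without (3.12%, 0.861 to 10.7) and 37 of 248 for Rbm38 (14.9%, 11 to 19.9). Over all protein-coding genes the shares were 15.1%, 15.1% and 43%, so the shares of the axon guidance genes were lower, an untested difference that for Rbm38 rests on a few genes. Unc5c, Unc5b and Efna5 held 74.7% of the enriched Rbm38 clusters. Without Efna5 the Rbm38 share was 26.5% (19.3 to 35.1), and without all 3 genes it was 37.1% (26.2 to 49.5), closer to the 43%. With annotated strands alone the shares were 3.33%, 3.28% and 14.3%. Without Efna5, Unc5c and Unc5b the Puf60 shares were 6.06% (1.68 to 19.6) with exon 5 and 2.86% (0.506 to 14.5) without. These shares rest on 2 of 33 clusters in 13 genes and 1 of 35 clusters in 15 genes. The intervals treat clusters of 1 gene as independent. They cannot tell the 2 forms apart or decide whether either differs from the 15.1%.

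Counted by gene, the Rbm38 result was close to the background. 15 of 22 genes with an enriched Rbm38 cluster (68.2%) had one within 2000 nt of the 3′ end, beside 72.7% of protein-coding genes. For Puf60 it was 3 of 16 genes with exon 5 (18.8%) beside 29.8%, and 2 of 18 without (11.1%) beside 30.4%. With annotated strands alone it was 13 of 18 genes for Rbm38 (72.2%), 2 of 14 with exon 5 (14.3%) and 2 of 15 without (13.3%). The gene counts are small, and none of these shares is a tested difference.

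**Figure D4:**
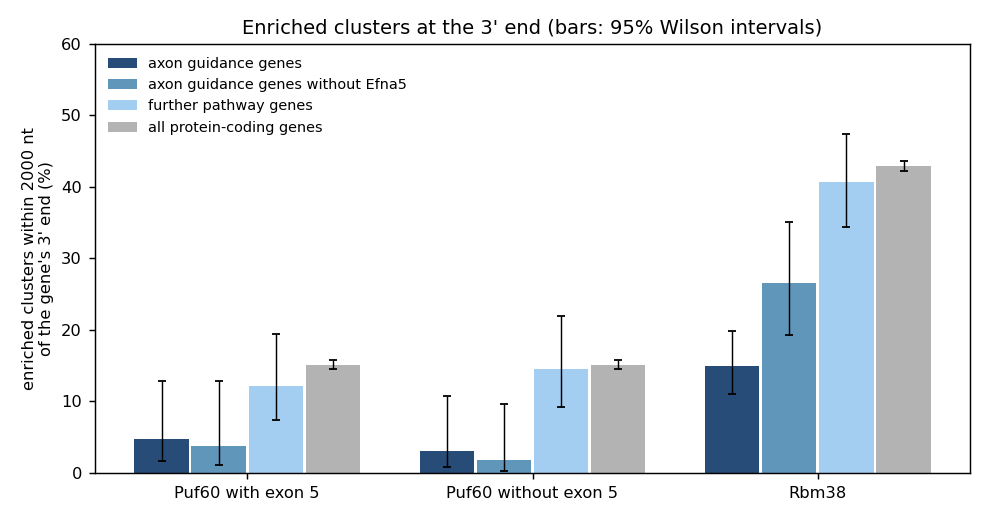
Percent of enriched clusters that lie within 2000 nt of the 3′ end of their gene (y axis, from 0), for the axon guidance genes, the same without Efna5, the further pathway genes and all protein-coding genes, by protein; error bars are 95% Wilson intervals over clusters. The axon guidance genes stand at 4.69%, 3.12% and 14.9%, beside 15.1%, 15.1% and 43% of all protein-coding genes.

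The Puf60 forms were compared at clusters that matched between their tables. There were 145 matched pairs in the axon guidance genes, of which 44 were enriched in at least 1 table. Both forms were enriched at 40 of these (90.9%), beside 81.9% of such pairs over the whole tables, 3 were enriched with exon 5 alone and 1 without alone. The median log2 fold with exon 5 minus without was 0.09 (SD over pairs 0.74), near the 0.07 of all such pairs in the authors' deposited tables. A difference over 1 in size was found at 7 pairs (15.9%), beside 15.7% over the whole tables, and 6 of the 7 were higher with exon 5. The axon guidance pairs thus differed by more than 1 about as often as other pairs.

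9 of the 10 genes with the highest values were the same for both forms. Of the 15 genes enriched in both, 12 had overlapping strongest clusters. Neither count was made over all genes, so both lack a background and are not a trait of this group. The widest difference with exon 5 higher was in Unc5c, at 3.82 (chr3:141519351-141519500) against 1.54 (chr3:141519451-141519500) in the authors' deposited tables, where the windows differ in extent. Efna5 followed with 0.66 against -1.14 at chr17:62605036-62605085, and Plxna4 with 1.91 against 0.23 at its end, in the authors' deposited tables. Efna5 also had 2.84 against 1.42 at chr17:62840536-62840585 in the authors' deposited tables, and its strongest cluster, given above, differed by 1.14.

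In the other direction the widest difference was again in Efna5, at 3.67 with exon 5 (chr17:62792136-62792185) against 4.92 without (chr17:62792136-62792235) in the authors' deposited tables. Slit2 (3.07 against 3.93), Unc5b (3.28 against 4.12), Sema4d (4.23 against 4.91) and Plxna3 (3.42 against 4.06) came next in the authors' deposited tables. Efna5 thus held pairs in both directions. Of the enriched clusters, 22 of 66 with exon 5 (33.3%, beside 30% over the whole table) and 23 of 64 without (35.9%, beside 32.1%) had no matched cluster in the other table. These shares lie near the background. Whether any of these differences exceeds the spread between libraries was not tested, and isoform and induction time cannot be told apart.

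**Figure D5:**
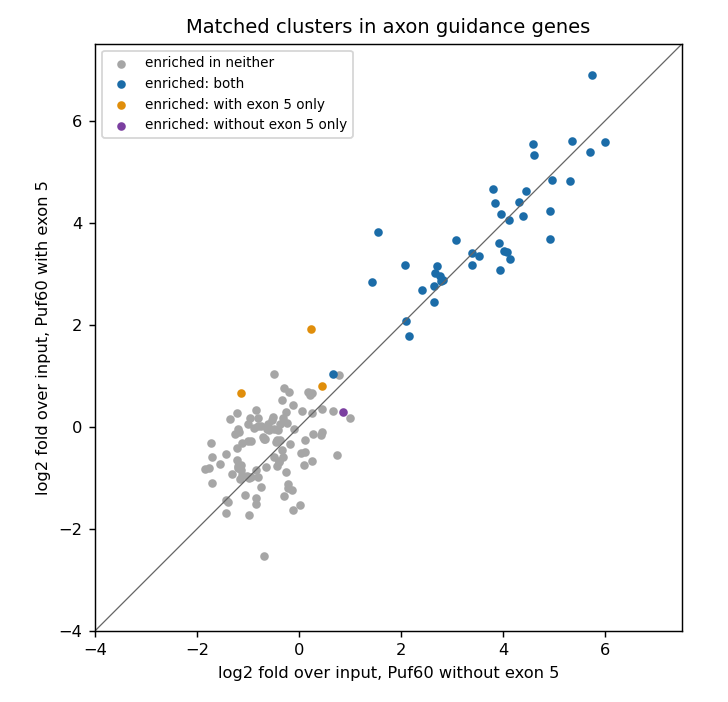
Log2 fold over input with exon 5 (y axis) against without exon 5 (x axis) for the 145 matched pairs of clusters in the axon guidance genes, coloured by the table in which they are enriched; the line marks equal values. In the authors' deposited tables both forms are enriched at 40 of the 44 pairs enriched in at least 1, and the differences of these 44 pairs run from -1.25 to 2.28.

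Most enriched Puf60 clusters had no matched Rbm38 cluster, as over the whole tables. It was 48 of 66 with exon 5 (72.7%, beside 62.1%) and 45 of 64 without (70.3%, beside 63.5%). At matched pairs with both centres inside the gene, Rbm38 was enriched at 12 of 17 clusters enriched with exon 5 (70.6%, beside 52.7% over the whole tables) and at 55 of 105 that were not (52.4%, beside 55.8%). Without exon 5 the counts were 13 of 19 (68.4%, beside 49.6%) and 53 of 93 (57%, beside 60.4%). Efna5 made up 80 of the 122 pairs with exon 5 and 61 of the 112 without. Without Efna5 and Unc5c, 5 and 6 pairs were enriched for both proteins, but the pairs enriched for Puf60 were then fewer too. These counts alone therefore do not show a lower share.

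Further genes of the pathway, 97 in all, were counted from a list of other cues and receptors (30) and of cytoplasmic effectors (67), which carry guidance signals to the cytoskeleton. Enriched were 118 of 312 clusters with exon 5 (37.8%, 41 genes), 122 of 345 without (35.4%, 44 genes) and 230 of 464 for Rbm38 (49.6%, 46 genes). These shares of clusters lie close to the 39.1%, 36.1% and 50.9% of the whole tables. The gene counts, 41, 44 and 46 of 97, do not. Of all protein-coding genes, 17.1%, 17.2% and 25.9% had an enriched cluster, lower shares in each case, a difference that was not tested. In all these counts, genes without an annotated strand took clusters on either strand. With annotated strands alone, 92, 97 and 174 clusters of the list were enriched. Within 2000 nt of the 3′ end lay 12.2%, 14.5% and 40.7% of the enriched clusters of the list. These lie near the 15.1%, 15.1% and 43% of all protein-coding genes.

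The strongest Puf60 clusters of this list were in Srgap3, which encodes a GTPase-activating protein of the srGAP family, known as partners of Robo, at 5.99 with exon 5 and 5.89 without in the authors' deposited tables. Trio, an exchange factor downstream of Dcc, had 5.49 and 5.43, and Nfasc, the adhesion molecule neurofascin, 5.43 and 4.95, in the same order and from the authors' deposited tables. Gsk3b, a kinase, reached 5.03 with exon 5, and L1cam, an adhesion molecule of axons, 5.46 without, in the authors' deposited tables. For Rbm38 the leading genes were the kinase gene Pak2 (5.27), Rtn4, which encodes the growth inhibitor Nogo (4.99), Dpysl2, which encodes the semaphorin effector CRMP2 (4.97), and the GTPase gene Rac1 (4.87), in the authors' deposited table. Pak2 has no strand here, so whether its cluster lies on its transcript is unknown.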

How the data were processed

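Transcripts of the axon guidance genes were read from 3 tables, 1 per protein, that the authors deposited; per the file headers they give each cluster's log2 fold, p-value and adjusted p-value. The log2 fold was read as CLIP over input, which the header alone does not state. Per the submitters' processing notes, TopHat, edgeR and the builds NCBIM37 and mm10 were used, without versions or roles; how clusters were called, replicates combined and duplicates removed is not stated in the labels or headers. The tables hold 0 columns of values per sample, so depth is unknown, and the planned tests per library were replaced by descriptions of the authors' columns. Whether replicate spread enters the p-value is unknown; 9, 12 and 50 enriched clusters of these genes share their log2 fold and p-value with at least 9 other clusters.

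Starts of clusters modulo 50 nt are 0, read as plus, or 35, read as minus. A cluster belonged to a gene whose body holds its centre on the gene's strand, and over all protein-coding genes each cluster was counted once in shares of clusters. RefSeq promoters gave the strand of 61 of the 71 genes; for the other 10, 5 of them with clusters, all clusters in the body were counted and a strand was taken from the offset if 3 or more clusters fell in no other gene and at least 80% of them had it. Inferred and annotated strands were equal for 3522 of 3689 protein-coding genes (95.5%). Clusters of different tables were paired by mutual largest overlap, of at least 1 nt. Enrichment used the deposited adjusted p under 0.05. Genes were named by rule: per table the 10 genes with the highest enriched log2 fold and the 5 with most clusters, the 5 widest isoform differences each way, members of each family, and up to 4 further pathway genes; others named were chosen after their values were seen. The members and lists were chosen with earlier results of these data known. Scripts ran in Python 3.11.15 with pandas 2.3.3, NumPy 2.4.6, SciPy 1.17.1 and matplotlib 3.10.9, and the counting steps were tested on simulated data. Alternatives changed the threshold, the adjustment, the 3′ window, the overlap and the gene assignment. Sequences under the clusters were not analysed here apart from those in RefSeq tables.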

Additional observations from a re-analysis of the deposited data

How the results depend on the processing

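Of 135 values under alternative settings, 122 kept their direction and stayed within the limit set for their kind (1.5 times for a count, the interval or SD for other values), 12 moved past it and 1 reversed. The share of enriched Rbm38 clusters near the 3′ end was 10.7% with Benjamini-Hochberg over the deposited p-values, 9.68% with a 1000 nt window and 26.2% with a 5000 nt window. The small Puf60 shares moved by more than 1.5 times within their intervals, to 3.12% with and 1.56% without exon 5 at 1000 nt, 9.38% and 6.25% at 5000 nt, and 1.82% without exon 5 when Efna5 was left out; the median isoform difference was 0.16 with Benjamini-Hochberg. The alternatives that leave out genes, and the one using annotated strands alone, were chosen after seeing the data. Without Efna5 that share was 26.5%, Rbm38 had 118 enriched clusters, and 7 pairs were enriched for Puf60 with exon 5 and Rbm38. Without Efna5 and Unc5c that share was 28.7%. The enriched clusters then numbered 37 with exon 5, 37 without and 95 for Rbm38. In the same setting 5 and 6 pairs were enriched for Rbm38 together with Puf60 with and without exon 5. The median isoform difference stayed at 0.09 without Efna5 and turned to -0.01 without Efna5 and Unc5c. No paired analysis was possible because the tables hold no values per library, and no replicate could be left out for the same reason. Depth is unknown, so an unlisted gene cannot be called unbound.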

Other observations

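Clusters on the strand opposite to an axon guidance gene were left out of the counts. The tables listed 32 with exon 5, 56 without and 53 for Rbm38, of which 8, 8 and 19 were enriched. Slit3 held 24, 48 and 47 of those listed and 3, 4 and 15 of those enriched, and all of its enriched ones lay in Gm46278, a long noncoding RNA gene on the minus strand. Their log2 folds ran from 1.38 to 4.04 with exon 5, from 1.10 to 3.77 without and from 0.57 to 2.64 for Rbm38 in the authors' deposited tables.

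The strongest cluster opposite to any of these genes was in Plxnb1, a receptor of Sema4d, which had none in its own orientation. Both Puf60 forms had it at chr9:109118436-109118535, at 5.84 with exon 5 and 6.08 without in the authors' deposited tables. Epha5 (4.46 and 4.69) and Sema6d (3.41 and 3.58) also had an enriched opposite-strand cluster in both forms, in the same order and from the authors' deposited tables. The annotation used here named no gene on that strand at these 3 places.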
